A study of Mus musculus with 12 samples.

Results

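The T cell receptor beta chains whose CDR3, the third complementarity-determining region, is long were taken from single-cell receptor libraries of CD45+ immune cells of BALB/c mouse mammary tumours. A member was a distinct productive TRB rearrangement, counted once per library by its V gene and CDR3 bases, in a called cell, with a CDR3 of 17 or more residues, the first cysteine and the last phenylalanine included. There were 295 such members among 10174 distinct rearrangements of 6 libraries, which was 2.90% (95% Clopper-Pearson interval 2.58 to 3.24). They were compared with the 9167 rearrangements of 12 to 16 residues. The other 712 were shorter, and the median length was 14 residues.

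Treatment was cyclophosphamide, which alkylates DNA, together with pexidartinib, which blocks the macrophage growth factor receptor CSF1R, for 3 weeks. The libraries CTX, CTX2, Combined and CSF1R were labelled treated, the last through the number of its expression library. PBS1 was labelled untreated, again through its expression library, and PBS2 was labelled treated in its own record and untreated in that of its expression library. The names CTX, CSF1R, PBS and Combined are tags of the contig table that the labels do not define, so no single drug is assigned to any library. The labels name no animal or tumour line, so the 6 libraries were treated as separate samples, and permutation p-values measure only the spread between them. The Mantel-Haenszel p-values further below treat each rearrangement or residue as a unit and do not measure that spread.

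The beta CDR3 is the loop of the receptor that is joined from a V, a D and a J gene segment while the T cell develops in the thymus. Nucleases trim the segment ends and terminal transferase adds bases without a template, so the length of the loop depends on which segments were joined, how much of each was kept and how much was added. In the bound receptor the middle of the loop lies over the peptide, whereas its ends come from the V and J segments.

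Sequences of members are given first, because the length is built differently in the members of different genes. The letters in capitals are the middle, which matched neither the common end of the V gene nor that of the J gene, and the lower case letters matched those ends. The first 6 hold the usual start of a mouse TRBV segment, and the seventh is the longest member of all.
PBS1, TRBV3 with TRBJ2-3, 18 residues: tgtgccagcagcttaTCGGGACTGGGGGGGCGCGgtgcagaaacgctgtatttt
PBS2, TRBV13-1 with TRBJ2-2, 19 residues: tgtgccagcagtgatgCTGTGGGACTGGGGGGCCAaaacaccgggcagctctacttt
CSF1R, TRBV5 with TRBJ2-7, 19 residues: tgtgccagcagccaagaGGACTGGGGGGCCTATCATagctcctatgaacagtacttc
CTX, TRBV2 with TRBJ2-4, 18 residues: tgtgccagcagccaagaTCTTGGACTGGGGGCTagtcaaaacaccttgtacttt
CTX2, TRBV13-2 with TRBJ2-2, 17 residues: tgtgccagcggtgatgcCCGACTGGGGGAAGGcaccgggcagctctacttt
Combined, TRBV5 with TRBJ2-3, 17 residues: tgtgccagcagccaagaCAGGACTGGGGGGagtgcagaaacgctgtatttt
PBS1, TRBV16 with TRBJ1-3, 24 residues: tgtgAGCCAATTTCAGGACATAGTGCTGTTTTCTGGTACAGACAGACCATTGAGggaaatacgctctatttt

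The first 6 sequences each carry a run of G in the middle, between 15 to 17 bases of the V gene and 19 to 22 bases of the J gene. The member of 24 residues differed from these in that only 4 of its bases matched the end of its V gene and 50 bases fell in the middle. It was found in 1 cell, with 34 UMIs (unique molecular identifiers, counts of captured transcripts) and no productive alpha chain. No D gene was called for it, and its bases were not compared with germline V sequences. Whether its middle is a junction of V, D and J segments was thus not tested, and it is kept in all counts below. The next longest member had 20 residues and came from Combined, with 1 UMI in a cell where another TRB had more. Its called CDR3 has the shifted start described below.

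The share of long CDR3 was low in every library. It was 7 of 141 distinct rearrangements in PBS1, or 4.96%, and 12 of 402 in PBS2, or 2.99%. It was 36 of 879 in CSF1R, or 4.10%, and 14 of 395 in CTX, or 3.54%. It was 15 of 514 in CTX2, or 2.92%, and 211 of 7843 in Combined, or 2.69%. The mean of the 6 libraries was 3.53% ± 0.867 (SD), and the highest share came from the library with the fewest rearrangements. Combined held 71.5% of all members, so every count pooled over libraries leans on it. Called cells numbered 245 to 7629 per library, with 192 to 7188 that had a productive TRB and 6807 to 121305 UMIs on contigs. Over pairs of libraries, 50 called cell barcodes were found in both, at most 14 in a pair.

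The length classes fell off steeply above 16 residues. There were 845 rearrangements of 16 residues, just below the limit, and 226 of 17 residues, just inside it. The median middle was 13 bases at 16 residues and 16 bases at 17. Only 69 members had 18 or more residues, of which 54 had 18 and 13 had 19. Members with the shifted start described below are included in these counts, at 18 and 19 residues as well as at 17.

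**Figure D1:**
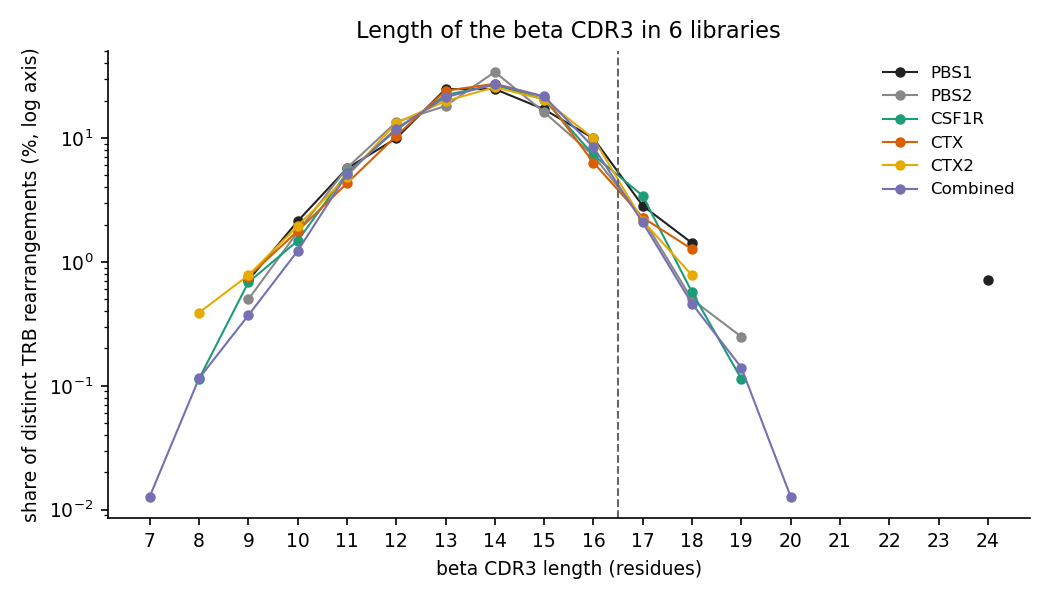
Share of distinct TRB rearrangements (%, log axis) at each beta CDR3 length in residues, 1 line per library, with lengths at which a library had no rearrangement left out and a dashed line at the limit of 17 residues. All 6 lines peak at 13 or 14 residues and fall steeply to the right of the dashed line, and the single point at 24 residues is from PBS1.

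The treated libraries had a mean share of long CDR3 of 3.31% ± 0.635 (SD, n = 4), against 4.96% in the untreated library (n = 1). All 4 treated libraries lay below PBS1, whose own interval was 2.02 to 9.96%. The difference of -1.65 percentage points had a two-sided exact permutation p of 0.2, the smallest that 4 libraries against 1 can give. Among the libraries whose names are numbers alone, the treated mean was 3.82% (n = 2) against the same 4.96%, and CTX2 and Combined, the libraries with JR in their names, were both treated. No difference between treated and untreated was thus detectable with this design.

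Most of the added length lay in the middle of the loop. Rearrangements with the shifted start described below were left out here, and the 24-residue member was kept. Long CDR3 then had on average 14.5 bases of the V gene, 16.7 in the middle and 20.6 of the J gene. Those of 12 to 16 residues had 13.03, 10.01 and 18.7. Of the 10.01 bases that separated the groups, 66.4% were in the middle, 18.6% came from the J side and 15.1% from the V side. These parts add up to the length that chose the members, so they are a description with no test. By library the mean middle of the members ran from 16.2 bases in CSF1R to 21.3 in PBS1, and that of the other group from 9.49 in PBS1 to 10.2 in CTX2. The 24-residue member is 1 of the 6 behind the value of PBS1.

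**Figure D2:**
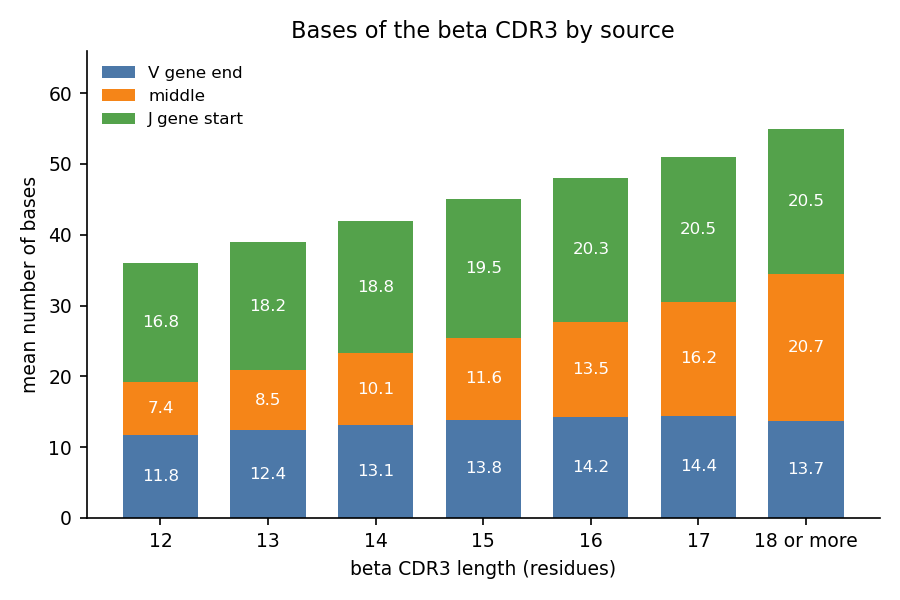
Mean number of bases of the beta CDR3 (vertical axis) that matched the V gene end (blue), neither end (the middle, orange) and the J gene end (green), by CDR3 length in residues, for all rearrangements of 12 or more residues in the 6 libraries pooled. The middle grows from 7.40 bases at 12 residues to 16.2 at 17 and 20.7 at 18 or more, while the J part grows from 16.8 to 20.5 and the V part lies between 11.8 and 14.4.

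The D segment of the same cluster as the J gene was more often readable in the members. The bases GACAGG lie in TRBD1 and GACTGG in TRBD2 and differ in a single base. Both were searched on the coding strand of the whole CDR3, bases of the V and J ends included. GACAGG was in 61 of the 102 members joined to a TRBJ1 gene, or 59.8%, and in 25.7% of the TRBJ1 joins of 12 to 16 residues. GACTGG was in 97 of the 193 members joined to a TRBJ2 gene, or 50.3%, and in 20.3% of the TRBJ2 joins of 12 to 16 residues. For GACAGG in TRBJ2 joins the share was not higher, at 23 of the 193 members, or 11.9%, beside 14.1% at 12 to 16 residues. The share of GACAGG in TRBJ1 joins and of GACTGG in TRBJ2 joins was higher in the members in each of the 6 libraries. For GACAGG in TRBJ1 joins it ran from 33.3% (1 of 3) in CTX to 100% (2 of 2) in PBS2 and CTX2. For GACTGG it ran from 40% (4 of 10) in PBS2 to 72.7% (8 of 11) in CTX. A longer stretch has more room for any 6 bases, so no test was made.

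The order of the segments on the chromosome limits which D can join which J, because TRBD2 lies downstream of all TRBJ1 genes. In the RefSeq gene table for GRCm38.p6, TRBD1 is at chr6:41533201-41533212, TRBJ1-6, the last of its cluster, at chr6:41535554-41535606, and TRBD2 at chr6:41542163-41542176. The TRBD2 motif was in 0 of 102 TRBJ1 members, which allows a share of up to 2.94%, and in 0.557% of the TRBJ1 joins of 12 to 16 residues. A CDR3 with both motifs was found once among the 295 members, in a TRBJ2 join, the TRBV5 member from Combined printed above. There GACAGG begins with the bases ga that matched the V gene end, and its last G is also the first of GACTGG. A TRBD1 segment is thus not read from it. The deposited D call was TRBD2 in 4 of the 102 TRBJ1 members, or 3.92%, and in 5.82% of the other TRBJ1 joins although TRBD2 lies downstream of those genes. It was missing in 6.86% of TRBJ1 members and 2.07% of TRBJ2 members, against 28.3% and 17.9% in the other group. It was TRBD1 in 20.2% of TRBJ2 members and in 37.1% of the other TRBJ2 joins.

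In 26 members, 8.81% of the 295, the called CDR3 began upstream of the usual start. The bases tgtgccagc open the CDR3 in 69.0% of all distinct rearrangements. In these 26 the same 9 bases stood at position 9 of the called CDR3 (counted from 1 at its first base), 8 bases in and so outside the called reading frame. No germline V sequences were used here, so this start was not compared with the germline. Examples follow, with those 9 bases in capitals.
Combined, TRBV13-1 with TRBJ2-5, 17 residues: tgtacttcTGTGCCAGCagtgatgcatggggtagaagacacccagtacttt
PBS2, TRBV13-2 with TRBJ2-3, 17 residues: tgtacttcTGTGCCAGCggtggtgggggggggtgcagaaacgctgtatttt
Combined, TRBV23 with TRBJ2-5, 18 residues: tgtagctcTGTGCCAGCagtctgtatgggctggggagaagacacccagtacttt

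Only 4 V genes were in this set, with 10 members of TRBV13-1, 10 of TRBV23, 5 of TRBV13-2 and 1 of TRBV26. Their first 7 residues were CTSVPAV in the 15 members of the TRBV13 genes and CSSVPAV in the 11 others. TRBV23 had this start in 20 of its 22 distinct rearrangements, all 10 long ones and 10 of 12 to 16 residues, so in this gene it is not particular to the long ones. Among CDR3 of 12 to 16 residues the shifted start was in 21 of 9167, or 0.229%, and among shorter ones in 0 of 712, which allows up to 0.421%. By library it was in 23 of 211 members of Combined, in 1 each of PBS1, PBS2 and CTX, and in none of the 36 of CSF1R and the 15 of CTX2, which allow shares of up to 8.33% and 20%.

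The shifted members rested on few molecules. Their median was 1 UMI, with 16 of 26 at 1 UMI and a highest value of 6. The other 269 members had a median of 8 UMIs and ranged from 1 to 52, with 18 at 1 UMI. The ranges overlapped between 1 and 6 UMIs. In 23 of the 26 the same cell held another productive TRB with more UMIs, against 27 of the 269 others, or 10.04%. Of the 26, 7 were marked high confidence in the deposited table, against 257 of the 269. The set was noticed in these data, so these are descriptions with no test. Gene use and composition are given below with and without it.

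**Figure D3:**
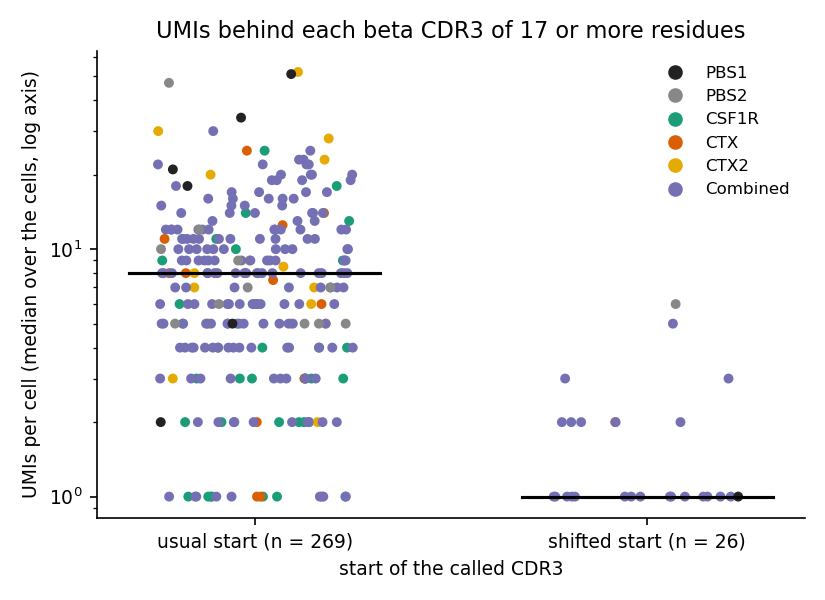
UMIs per cell (log axis; the median over the cells of a rearrangement) for each of the 295 beta CDR3 of 17 or more residues, split by whether the called CDR3 had the usual or the shifted start, coloured by library, with horizontal lines at the medians. The 26 with the shifted start lie between 1 and 6 UMIs with a median of 1, and the 269 others reach 52 with a median of 8.

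Among the J genes, TRBJ2-3 was the most used by the members and TRBJ2-7 was rare. The J segment gives the last residues of the loop, and the 12 TRBJ genes differ in how many bases lie before the phenylalanine. TRBJ2-3, at chr6:41543223-41543271, made up 14.3% (1 of 7) of the members in PBS1, 33.3% (4 of 12) in PBS2 and 19.4% (7 of 36) in CSF1R. It made up 57.1% (8 of 14) in CTX, 13.3% (2 of 15) in CTX2 and 18.5% (39 of 211) in Combined. In the rearrangements of 12 to 16 residues it lay between 7.91% in CTX and 10.04% in CTX2. The members' share was the higher in all 6 libraries, and CTX stood highest. The members exceeded the other group by 17.01 percentage points ± 17.3 on average (SD, n = 6; means 26.0% and 8.99%), and the exact sign-flip permutation test (two-sided) gave p = 0.03125, its smallest possible value with 6 libraries, or 0.1875 after Benjamini-Hochberg adjustment over 12 genes. Without the CTX library the mean difference was 10.6 points. It was 7.26 points at 18 or more residues (exact sign-flip permutation p 0.40625), 10.5 at 16 or more (p 0.0625), and 18.1 with doublets left out (p 0.09375).

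TRBJ2-7, at chr6:41543810-41543856, went the other way. It made up 0 of 7 members in PBS1, 1 of 12 in PBS2, 2 of 36 in CSF1R, 0 of 14 in CTX, 2 of 15 in CTX2 and 7 of 211 in Combined. In the rearrangements of 12 to 16 residues it lay between 11.5% in PBS1 and 19.2% in CTX. It was the most used TRBJ gene there on the mean of the libraries. In PBS1 TRBJ2-1 stood above it with 14.8%, and in PBS2 TRBJ2-5 with 15.4%. On average the difference was -9.54 points ± 6.16 (SD, n = 6; means 5.09% and 14.6%), lower in 6 of 6 libraries, with the same exact sign-flip permutation p of 0.03125 and 0.1875 adjusted. In these small member groups a count of 0 of 7 allows a share of up to 42.9%, 0 of 12 up to 25%, 0 of 14 up to 21.4%, 0 of 15 up to 20% and 0 of 36 up to 8.33%.

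No TRBJ gene passed the sign-flip test after adjustment (0% of 12), and 2 had an unadjusted p under 0.05, the 2 genes above. They were also the 2 of 12 (16.7%) with the same direction in 6 of 6 libraries. A Mantel-Haenszel test, which pools the counts of the libraries and treats each rearrangement as a unit, was added after the data were seen and called 5 of 12 TRBJ genes (41.7%) at an adjusted p under 0.05. Its odds ratio was 2.58 (95% interval 1.93 to 3.45, adjusted p 8.8e-10) for TRBJ2-3 and 0.248 (0.139 to 0.443, adjusted p 3.2e-06) for TRBJ2-7. TRBJ1-4 was also called higher with an odds ratio of 1.56, and TRBJ1-1 and TRBJ1-2 lower, with 0.251 and 0.340. Without Combined only TRBJ2-3 was called, with an odds ratio of 3.50, and TRBJ2-7 had 0.360 with an adjusted p of 0.145. Without the shifted starts TRBJ1-1 was lower in 6 of 6 libraries (exact sign-flip permutation p 0.03125, adjusted 0.125), the Mantel-Haenszel test called 7 TRBJ genes, and the 2 added were TRBJ1-6 and TRBJ2-4, with odds ratios of 1.81 and 1.62.

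**Figure D4:**
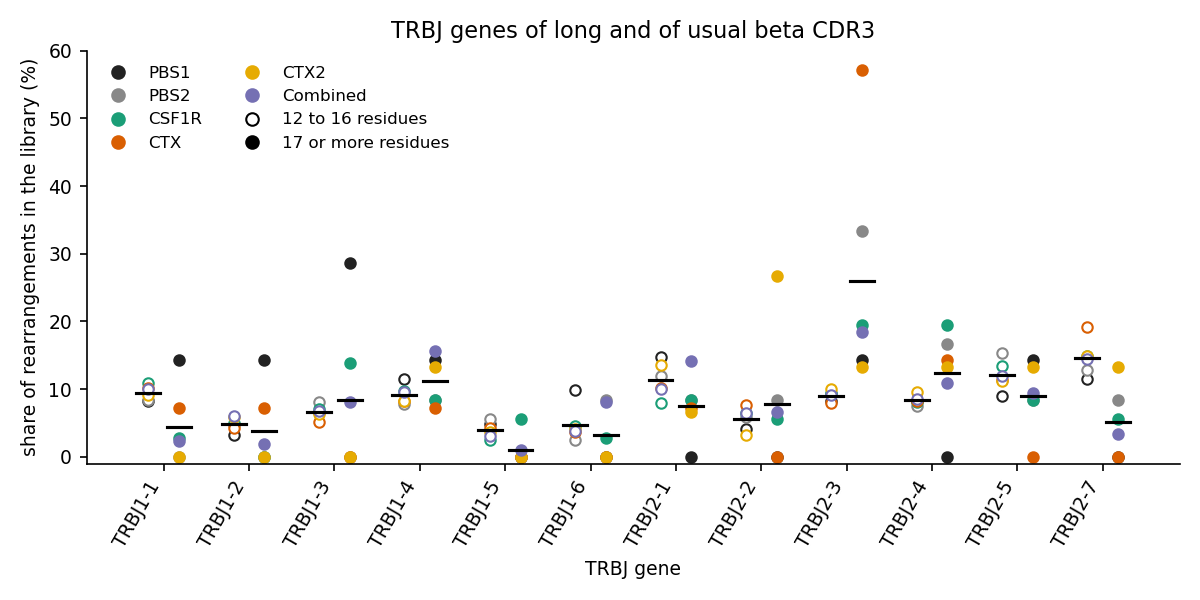
Share (%) of each TRBJ gene among rearrangements of 12 to 16 residues (open points) and among those of 17 or more (filled points), 1 point per library and colour, with black lines at the means of the 6 libraries. For TRBJ2-3 the filled points lie from 13.3 to 57.1% above open points near 9%, and for TRBJ2-7 the filled points lie below the open ones of the same colour.

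Read the other way, 61 of the 935 distinct rearrangements with TRBJ2-3 were long, or 6.52% (Clopper-Pearson 5.03 to 8.30). Next in order were TRBJ1-6 with 4.87%, TRBJ1-4 with 4.37% and TRBJ2-4 with 4.21%, whose intervals overlap that of TRBJ2-3. TRBJ1-3, TRBJ2-1 and TRBJ2-2 followed with 3.62, 3.55 and 3.37%, and TRBJ2-5 had 2.21%. The lowest shares were 1.23% for TRBJ1-5, 1.05% for TRBJ1-2, 0.759% for TRBJ2-7 and 0.758% for TRBJ1-1, whose intervals also overlap each other. The common J end read from the rearrangements had 26 bases for TRBJ1-6, 23 for TRBJ2-3, TRBJ1-4, TRBJ2-2 and TRBJ1-5, 22 for TRBJ1-3 and TRBJ2-5, and 21 for TRBJ2-4, TRBJ2-1, TRBJ1-2, TRBJ2-7 and TRBJ1-1. The share of long CDR3 was 4.87% for the gene of 26 bases and 1.23 to 6.52% for those of 23. It was 2.21 and 3.62% for those of 22 bases and 0.758 to 4.21% for those of 21. Members were chosen by length, to which the J genes give unequal numbers of bases. The part of this in J use was not tested. On average 20.02 bases of TRBJ2-3 were kept in all rearrangements, 18.6 of TRBJ2-4 and of TRBJ1-5, and 15.6 of TRBJ2-7. The TRBJ2 cluster as a whole gave 67.8% of members and 61.0% of the other group, a difference of 6.76 points ± 18.5 (SD, n = 6) that was positive in 5 of 6 libraries (exact sign-flip permutation p 0.4375).

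Among the V genes, TRBV5 was the most used by the members. TRBV5, at chr6:41062359-41062803, made up 28.6% (2 of 7) of members in PBS1, 8.33% (1 of 12) in PBS2 and 27.8% (10 of 36) in CSF1R. It made up 28.6% (4 of 14) in CTX, 26.7% (4 of 15) in CTX2 and 23.2% (49 of 211) in Combined. In the other group it lay between 7.38% in PBS1 and 10.8% in Combined. PBS2 was the only library where the members' share was not the higher. The average excess was 14.5 points ± 7.82 (SD, n = 6; means 23.9% and 9.39%), higher in 5 of 6 libraries, with an exact sign-flip permutation p of 0.0625 (adjusted 0.156). Without the shifted starts it was 16.2 points and positive in 6 of 6 libraries (exact sign-flip permutation p 0.03125, adjusted 0.117).

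TRBV1 and TRBV20 were nearly absent from the members. TRBV1, at chr6:40891296-40891885, made up 1 of 211 members in Combined and none in the 5 other libraries, against 3.91 to 6.82% of the other group. TRBV20, at chr6:41188273-41188977, made up 3 of 211 members in Combined and none elsewhere, against 3.67 to 7.76%. At the share of the other group, 12.04 members of TRBV1 and 16.4 of TRBV20 would be found in Combined, and 0.344 to 2.69 in each other library. The lower counts were thus visible in Combined, while a count of 0 in the other libraries is near what their size allows. The mean differences were -5.11 points ± 0.978 (SD) for TRBV1 and -5.41 points ± 1.44 (SD) for TRBV20, each with an exact sign-flip permutation p of 0.03125 (n = 6, adjusted 0.156), in which those small counts set 5 of the 6 signs. The common V end read from the rearrangements was 12 bases long for TRBV1 and TRBV4, 14 for TRBV20, TRBV13-3, TRBV19 and TRBV31, 16 for TRBV3 and TRBV13-1, and 17 for TRBV5, TRBV16 and TRBV13-2. The share of long CDR3 was 0.134% for TRBV1 and 1.04% for TRBV4, the genes of 12 bases. Among the genes listed with 14 bases it ran from 0.410% for TRBV20 to 2.46% for TRBV13-3. It was 3.14% for TRBV13-1 and 8.56% for TRBV3, with 16 bases. Among those listed with 17 bases it ran from 3.04% for TRBV13-2 to 7.04% for TRBV16. The shares differed among genes whose ends were read as equally long. These ends were read from the rearrangements and not from germline sequences, so they can be shorter than the segments. The part of segment length in V use was not tested.

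TRBV3, a rare gene, was a frequent one among the members, at 9.93% on average against 2.17%. It made up 2 of 7 members in PBS1, 5 of 36 in CSF1R, 1 of 14 in CTX, 1 of 15 in CTX2, 7 of 211 in Combined and 0 of 12 in PBS2. Its mean difference of 7.76 points ± 10.6 (SD, n = 6), higher in 5 of 6 libraries, had an exact sign-flip permutation p of 0.09375 (adjusted 0.201). Without the PBS1 library it was 3.93 points. TRBV16 had a mean of 6.73% against 1.16%, from 5 members in 4 libraries, none of them in Combined. The member of 24 residues in PBS1 is 1 of these 5.

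No TRBV gene passed the sign-flip test after adjustment (0% of 15), and 3 had an unadjusted p under 0.05. These were TRBV1, TRBV20 and TRBV17, the 3 of 15 (20%) that lay the same way in 6 of 6 libraries. TRBV17 was named after its values were seen, and its means were 0.237% and 2.12%. The Mantel-Haenszel test called 6 of 15 TRBV genes (40%). The odds ratio was 2.65 for TRBV5 (2.01 to 3.50, adjusted p 2.5e-11), 3.11 for TRBV3 (1.83 to 5.28, adjusted p 0.00021) and 1.82 for TRBV2, which was named after its values were seen. It was 0.0568 for TRBV1 (adjusted p 0.00050), 0.132 for TRBV20 (adjusted p 0.00035) and 0.327 for TRBV4. Without Combined the test called TRBV5, TRBV3 and TRBV16, with odds ratios of 3.13, 5.57 and 5.71. In those 5 libraries 0 of 84 members used TRBV1 and 0 of 84 used TRBV20, with an adjusted p of 0.144 for each.

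The remaining common V genes gave no call in either test. Their mean differences were 1.34 points for TRBV13-2 (16.3% against 14.97%), -3.01 for TRBV13-1, -4.90 for TRBV13-3, -4.45 for TRBV19 and -2.93 for TRBV31. TRBV13-1 and TRBV13-2 include the shifted starts, and without these the difference of TRBV13-1 was -6.82 points (exact sign-flip permutation p 0.0625). TRBV4 was lower in 5 of 6 libraries and higher in PBS2, where it made up 2 of 12 members.

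**Figure D5:**
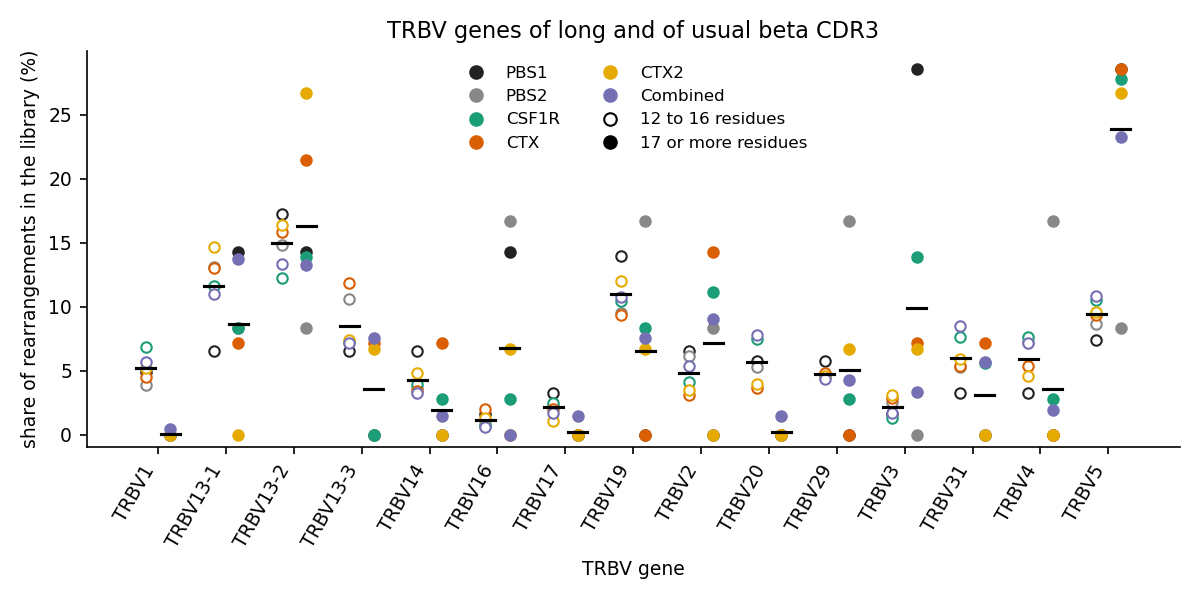
Share (%) of each of 15 TRBV genes among rearrangements of 12 to 16 residues (open points) and among those of 17 or more (filled points), 1 point per library and colour, with black lines at the means of the 6 libraries. For TRBV5 the filled points of 5 libraries lie between 23.2 and 28.6% and that of PBS2 at 8.33%, and for TRBV1 and TRBV20 the filled points lie at or near 0.

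The V and J genes combined in the members as pairs. TRBV5 with TRBJ2-3 gave 21 of the 295 members, the most of any pair, and 21 of the 110 distinct rearrangements of that pair were long, or 19.1%. TRBV13-2 with TRBJ1-4 gave 10 of 117, or 8.55%, and TRBV5 with TRBJ1-4 gave 9 of 97, or 9.28%. A higher share than that of TRBV5 with TRBJ2-3 was found in a rarer pair, TRBV2 with TRBJ1-6, at 5 of 22, or 22.7%. The member from Combined printed above is of the pair TRBV5 with TRBJ2-3, and it keeps 17 bases of the V gene and 21 of the J gene around a middle of 13 bases, fewer than the median of 16 at its length.

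Gene use was measured again with length counted over the middle bases alone. The 202 rearrangements with 19 or more middle bases included 80 of the members. In the shifted starts of the TRBV13 genes and TRBV26 most V bases fall in the middle. In those of TRBV23 they mostly matched the V end read for that gene, which holds the shifted start itself. The count was repeated without shifted starts, an alternative added after the data were seen, on 175 rearrangements that included 64 members. The difference for TRBV5 was then 4.43 points (2.43 with the shifted starts). That for TRBV1 turned to 0.0851 (-0.846 with them) and that for TRBV20 to 0.480 (-0.513 with them). TRBJ2-3 had 13.8 points (exact sign-flip permutation p 0.1875, and 11.3 points with them), and TRBJ2-7 turned to 7.77 (exact sign-flip permutation p 0.3125, and 7.38 with them). TRBJ1-4, called higher by the Mantel-Haenszel test above, turned to -8.09 points (exact sign-flip permutation p 0.03125, unadjusted, and -8.20 with them). By this measure the directions of TRBV5 and TRBJ2-3 were kept with and without the shifted starts, and those of TRBJ2-7 and TRBJ1-4 were turned.

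The amino acids were counted in the core of the loop. This was the CDR3 without its first 4 and last 5 residues, which holds 2450 residues of the members and 45086 of the other group. Asparagine made up 3.08% of core residues of the members in PBS1, 5% in PBS2, 4.75% in CSF1R, 2.56% in CTX, 4.84% in CTX2 and 6.12% in Combined. In the other group it lay between 6.91% in CTX2 and 10.4% in PBS1, so the 2 ranges did not overlap. The average difference was -3.70 points ± 2.16 (SD, n = 6), with an exact sign-flip permutation p of 0.03125 (adjusted 0.208). With only the first and last residue removed it was -0.860 points (exact sign-flip permutation p 0.125). Asparagine lies near the start of several J segments, and removing 5 residues from the end leaves some J residues of long J segments in the core.

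Threonine was lower in the members in 6 of 6 libraries, by 1.63 points ± 1.05 (SD) on average (means 5.004% and 6.64%, exact sign-flip permutation p 0.03125, n = 6, adjusted 0.208). With only the first and last residue removed, its difference turned to 0.132 points. Aspartate was lower in 5 of 6 libraries (means 6.60% and 8.85%). Leucine was higher in 5 of 6 (means 6.53% and 4.23%), and PBS1 went the other way with 2 of 65 residues. Glycine, the residue that runs of G in the D segments encode, had a mean of 27.9% against 24.8%, higher in 5 of 6 libraries (exact sign-flip permutation p 0.1875). Over the middle 5 residues its difference was 14.3 points and over all residues but the first and last 4.05, against 3.13 in the core (each of the first 2 with an unadjusted exact sign-flip permutation p of 0.03125). Alanine had 9.43% against 7.07% of the core, but its difference turned to -1.17 points over the middle 5 residues and -0.882 over all but the first and last. Proline, named after its values were seen, was higher in 6 of 6 libraries, at 5.48% against 3.64%.

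No amino acid passed the sign-flip test after adjustment (0% of 20), and 3 had an unadjusted p under 0.05. They were asparagine, threonine and proline, the 3 of 20 (15%) with 1 direction in 6 of 6 libraries. The Mantel-Haenszel test, which here counts residues of the same loop as separate units, called 6 of 20 (30%), and its p-values are too small because those residues are not independent. As a description, leucine had an odds ratio of 1.56, proline 1.66, alanine 1.25, asparagine 0.694 and aspartate 0.735. The sixth was cysteine, which was in the core of 8 members, of which 7 had the shifted start, and of 7 rearrangements of the other group. Without the shifted starts the test called leucine, proline, asparagine and aspartate, and without Combined it called leucine (1.75) and asparagine (0.520).

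The mean Kyte-Doolittle hydropathy of the core, where a higher value is more hydrophobic, was higher in the members. It was -0.506 in PBS1, -0.566 in PBS2, -0.913 in CSF1R, -0.397 in CTX, -0.881 in CTX2 and -0.834 in Combined. In the other group it lay between -1.22 and -1.17. The 2 ranges did not overlap, and CTX was the highest. On average the members lay higher by 0.503 ± 0.222 (SD, n = 6), with an exact sign-flip permutation p of 0.03125 (adjusted 0.156 over 10 measures). Without the shifted starts it was 0.426, positive in 6 of 6 libraries, with the same p. Among the 4 libraries named by number it was 0.5996 and in CTX2 and Combined it was 0.310 on average. With length counted over the middle bases the difference was 0.469 (exact sign-flip permutation p 0.0625). Without the shifted starts that limit gave 0.260, with the same p. The PBS1 value rests on 65 core residues, those of the longest member included. Removing fixed numbers of residues from the ends leaves a longer core in the members, so V and J residues can weigh less there. The part of this in the hydropathy and residue differences was not tested. The net charge per core residue was -0.0306 and -0.0420, and the difference of 0.0115 was positive in 4 of 6 libraries (exact sign-flip permutation p 0.1875).

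None of the long CDR3 was found in more than 1 library. Sharing meant the same V gene and the same amino acid CDR3 in another of the 6 libraries. It was 0 of 295 for the members, which allows a share of up to 1.02%, and 152 of 9167, or 1.66%, for CDR3 of 12 to 16 residues. By library the latter was 7.38% in PBS1, 5.59% in PBS2, 2.70% in CSF1R, 5.08% in CTX, 5.46% in CTX2 and 0.831% in Combined, the library with the most rearrangements to match. The mean difference was -4.51 points ± 2.34 (SD, n = 6). At the share of the other group, 0.516 to 1.75 shared members would be found per library and 5.44 in all. The limit that a count of 0 allows, 1.42% in Combined and 8.33 to 42.9% elsewhere, lay above the share of the other group in all 6 libraries, so a lower share was not detectable in any one of them. With 0 in every library no difference could be positive, so the exact sign-flip permutation p of 0.03125 (adjusted 0.156) is not read as a result.

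By length, sharing was 13.3% at 9 residues (6 of 45), 3.68% at 10, 3.09% at 11, 2.06% at 12, 2.58% at 13, 1.58% at 14, 1.07% at 15 and 0.473% (4 of 845) at 16. It was lower at each step except from 12 to 13 residues. At 17 residues it was 0 of 226. Within a library, 2 of the 295 members, both in 1 pair, had the same V gene and amino acid CDR3 from different bases, or 0.678%, against 1.49% in the other group.

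The partner alpha chain was about as long as in other cells. An alpha chain was found for 229 members, and its CDR3 had a mean of 13 residues in PBS1, 13.4 in PBS2, 13.7 in CSF1R, 13.5 in CTX, 12.9 in CTX2 and 13.6 in Combined. In the other group the means lay between 13.5 and 13.9. The mean difference was -0.294 residues ± 0.424 (SD, n = 6), lower in 4 of 6 libraries, with an exact sign-flip permutation p of 0.1875. An alpha CDR3 of 16 or more residues was paired with 20 of 229 members (8.73%) and with 8.39% of the other group, and the mean difference over libraries of -4.34 points had an exact sign-flip permutation p of 0.25. By beta length the mean alpha length was 13.7 residues at 12, 13.5 at 14, 13.6 at 16 and 13.5 at 17.

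Of the 295 members, 5 (1.69%) were found in 2 or more cells of their library, against 1.97% of the other group. The largest clone was in CTX2, joined from TRBV13-2 and TRBJ2-2, with 11 cells, a median of 23 UMIs and the core DARLGEGT. All 11 cells shared the same alpha chain, of 12 residues in its CDR3. The sequence of this clone is printed above. The other 4 had 2 cells each and 17 residues, with 2 in CTX and 1 each in CSF1R and CTX2, and 2 of the 4 used TRBV5. Of these 4, 2 had the same alpha chain in both cells.

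Clone sizes in the other group reached 119 cells, in CTX2. The share of rearrangements in 2 or more cells was 2.78% of members in CSF1R, 14.3% in CTX and 13.3% in CTX2, beside 1.67, 11.02 and 11.1% of the other group. It was 0 in PBS1, PBS2 and Combined, beside 10.7, 3.91 and 0.719%, and 0 of 211 in Combined allows up to 1.42%. The mean difference was -1.45 points ± 5.17 (SD, n = 6; exact sign-flip permutation p 0.63). The mean number of cells per rearrangement was 1.15 and 1.38, lower for the members in 5 of 6 libraries (exact sign-flip permutation p 0.0625, n = 6, adjusted 0.208).

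Measures of how firmly a contig was called were compared as well. The share of a member's cells in which another TRB had more UMIs was 21.8% in Combined and 13.9% in CTX2, beside 8.83 and 6.04% in the other group. It was 7.14% in CTX, beside 3.49%. It was 0 in PBS1, PBS2 and CSF1R, beside 5.74, 6.23 and 3.32%. The mean difference of 1.54 points ± 7.90 (SD, n = 6) had an exact sign-flip permutation p of 0.656, and without the shifted starts it was -0.848 points. Median UMIs were 8.38 for members and 8.13 for the others on the mean of the 6 libraries (exact sign-flip permutation p 0.969). Of the members 89.5% were marked high confidence, against 96.8% of the other group. The part that shifted starts or cells with more than 1 beta chain have in the gene use above was not tested beyond the values without them.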

How the data were processed

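Per the labels' protocols, receptor libraries came from a 5′ droplet kit with V(D)J enrichment for mouse T cells. They were processed by the authors with Cell Ranger 3.0.2 on mm10 (GRCm38), per the submitters' processing notes. The deposited contig table gives read counts and UMI counts, whole numbers that are not normalized, with gene calls and CDR3. It names 11 libraries, of which 6 were tied to a sample and 5 were not used. Of 11575 productive TRB contigs in called cells, 406 repeated a V gene and CDR3 within a cell and were merged with their UMIs summed. Doublets were kept.

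The members and the genes and residues named were chosen with earlier results of these data known. Named were the TRBJ genes tested, the 8 TRBV genes most used among 12 to 16 residues, and the 3 genes or residues with the largest difference in each direction. Genes of at least 1% on average were tested. The V and J ends were read base by base from the distinct rearrangements of a gene. Each base was shared by at least 60% of those that had matched up to it, with 10 or more left. A whole end can thus be shared by fewer than 60% of a gene's rearrangements. Differences, long minus 12 to 16 residues, were tested by an exact permutation of their signs over the 6 libraries (sign-flip test, two-sided) and adjusted by Benjamini-Hochberg. Intervals and limits for a count of 0 (3 counts of the total) cover counting error only. The test functions were tested on simulated data. RefSeq positions (GRCm38.p6) are of another strain than BALB/c, and all 36 gene names matched. Alternatives were other length limits, UMI minimums, doublets left out, single libraries left out, other cores and other matches. The tools were statsmodels 0.14.6, pandas 2.3.3, scipy 1.17.1 and numpy 2.4.6 under Python 3.11.15.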

Additional observations from a re-analysis of the deposited data

Results flagged for a closer look

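In 4 of 40 groups of library values tested, 1 library stood apart from the other 5 by Dixon's criterion, where chance gives about 1 in 20. The median TRB UMIs of members exceeded those of the other group by 8 in PBS1, beside -3 to 0.5 in the others. The TRBJ2-2 share differed by 23.4 points in CTX2, from 4 of 15 members, of which the clone of 11 cells is 1. The TRBV4 share differed by 9.40 points in PBS2, from 2 of 12 members. The leucine share differed by -0.930 points in PBS1, from 2 of 65 core residues, while it was higher in the other 5 libraries.

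For 2 measures PBS1, the untreated library, moved one way and all 4 treated libraries the other. The difference in the TRBJ2 cluster share was -27.2 points in PBS1 and 2.41 to 24.2 in the treated libraries, a gap of 39.0 points between their mean and PBS1. The difference in median TRB UMIs was 8 in PBS1 and -3 to -1 in the treated libraries, a gap of -9.75. These gaps were not tested, and PBS1 had 7 members.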

How the results depend on the processing

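Leaving out 1 library at a time leaves 5, for which the smallest exact sign-flip permutation p is 0.0625, so the p of core hydropathy (0.447 to 0.546) and of sharing (-4.49 to -2.30 points) no longer passed, with the direction unchanged. The same steps gave 0 TRBJ genes, TRBV genes and amino acids passing the sign-flip test, -1.91 to -1.45 points for the treatment difference, -2.40 to 0.388 points for the expanded share, -0.747 to 3.09 points for the share with a stronger second beta, and -1.3 to 0.9 for TRB UMIs. Among the 4 libraries named by number, hydropathy was 0.5996 and sharing -1.997 points (exact sign-flip permutation p 0.125), and the second beta share turned to -2.91 points. Between CTX2 and Combined, hydropathy was 0.310 and sharing -2.30 (exact sign-flip permutation p 0.5), and the expanded share turned to 0.740 points and UMIs to -2.

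At 18 or more residues, shifted starts included, the expanded share was -6.53 points and cells per rearrangement -0.375 (both exact sign-flip permutation p 0.03125). There hydropathy was 0.559 (exact sign-flip permutation p 0.0625), alpha length turned to 0.0890 and the second beta share was 14.1 points (exact sign-flip permutation p 0.25). At 16 or more residues charge was 0.0160 (exact sign-flip permutation p 0.03125), and the expanded share turned to 2.27 points, cells per rearrangement to 0.0685 and UMIs to -0.750. Cells per rearrangement passed against 16 or fewer residues (-0.226) and with at least 3 UMIs (-0.228), where the second beta share turned to -1.06. With length by middle bases hydropathy was 0.469 (exact sign-flip permutation p 0.0625), cells per rearrangement -0.355, second beta share 14.3 points and UMIs -2.92 (each exact sign-flip permutation p 0.03125), and TRBJ2-7 turned to 7.38 points. Without shifted starts this limit gave hydropathy 0.260 (exact sign-flip permutation p 0.0625), charge 0.0506 and cells per rearrangement -0.353 (both p 0.03125), and TRBJ2-7 turned to 7.77, TRBV1 to 0.0851 and TRBV20 to 0.480 points.

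The top TRB contig per cell gave -0.167 UMIs and doublets left out -0.833. Charge of the middle 5 residues differed by 0.0631 (exact sign-flip permutation p 0.03125). Threonine turned to 0.132 points over all residues but the first and last. Sharing was -0.581 points by nucleotide match (exact sign-flip permutation p 0.0625) and -1.66 points pooled. Without shifted starts, chosen after seeing the data, the second beta share turned to -0.848 points. Mantel-Haenszel counts, also chosen then, were 5 TRBJ genes, 6 TRBV genes and 6 amino acids, then 7, 6 and 4 without shifted starts and 1, 3 and 2 without Combined. Of 769 differences with a p under alternatives, 715 kept their direction, and 597 kept both direction and side of an unadjusted 0.05. TRBJ2-1 turned from -3.97 to 5.27 points at 16 or more residues (exact sign-flip permutation p 0.03125). Treated and untreated libraries could not be paired with each other, because the labels give the libraries no replicate numbers. The members of 5 libraries, 7 to 36 each, limit what their shares can show.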

Other observations

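Rearrangements marked as not productive were long more often than productive ones. Of 373 distinct ones with a called CDR3, 78 had 17 or more residues, or 20.9% (Clopper-Pearson 16.9 to 25.4), and the longest had 25. The share was 5 of 14 in PBS1, 3 of 17 in PBS2, 11 of 42 in CSF1R, 4 of 27 in CTX, 1 of 16 in CTX2 and 54 of 257 in Combined. In 46 of the 78, or 59.0%, the common start or the V gene's own start lay inside the called CDR3, at position 9 in 37 of them. Among the 297 with the usual start, 32 were long, or 10.8%. A CDR3 can be called in such a contig in a frame other than that of its V gene, and no test was made.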
